A study of Mus musculus with 24 samples.

Results

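Wild-type mouse macrophages given interleukin-4 (IL-4) were compared with unstimulated wild-type macrophages across all genes. The comparison used 12 of the 24 libraries of the series, chosen by their labels: 6 libraries of unstimulated cells, labelled M0, and 6 of IL-4-treated cells, labelled M2. All cells were grown from the bone marrow of C57BL/6N mice that carry an intact MK2 gene (Mapkapk2, a kinase downstream of p38), with murine M-CSF at 10 ng/ml, and were detached and replated on day 7. M2 cells received murine IL-4 at 10 ng/ml and both groups were harvested 24 h later. The other 12 libraries came from MK2 knockout mice in the same 2 states. They entered the same fit, where they shared in the gene filter, scaling and estimate of spread, and also served as a comparison. The labels give neither the age nor the number of the animals and do not tie replicates to animals, so the tests capture library-to-library spread that may be technical.

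IL-4 binds a receptor made of IL-4R alpha with either the common gamma chain or IL-13R alpha 1. JAK kinases bound to the receptor phosphorylate STAT6, which enters the nucleus and binds DNA at palindromic sites. In mouse macrophages the response is known for arginase 1, resistin-like molecule alpha and the chitinase-like protein Ym1, and the state it produces is called alternative activation. The cells were called macrophages by their labels, and 19 macrophage identity genes summed to between 26273 and 33387 CPM (counts scaled to a fixed library total) in the M0 libraries and between 25736 and 30980 in the M2 libraries. All of the marker genes Arg1, Retnla, Chil3, Mgl2 and Il1rl2 were higher in every M2 library than in every M0 library.

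Promoters of 3 of the most induced genes are shown because they hold the palindrome TTCNNNNGAA, whose 4-base spacer is the one STAT6 is known to prefer. Each sequence is the 250 bases upstream of the RefSeq transcript start on GRCm38.p6, printed 5′ to 3′ on the gene's strand with the palindrome in capitals. Retnla encodes resistin-like molecule alpha, and its window is chr16:48842359-48842608 (plus strand). Pdcd1lg2 encodes PD-L2, a ligand of the T cell receptor PD-1, and its window is chr19:29410669-29410918 (plus strand). Tmem26 encodes a membrane protein, and its window is chr10:68723496-68723745 (plus strand).
Retnla: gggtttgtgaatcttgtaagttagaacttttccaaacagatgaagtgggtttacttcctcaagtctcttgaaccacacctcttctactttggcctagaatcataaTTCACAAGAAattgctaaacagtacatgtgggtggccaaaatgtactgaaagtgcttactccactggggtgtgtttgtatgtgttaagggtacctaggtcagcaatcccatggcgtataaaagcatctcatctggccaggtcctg
Pdcd1lg2: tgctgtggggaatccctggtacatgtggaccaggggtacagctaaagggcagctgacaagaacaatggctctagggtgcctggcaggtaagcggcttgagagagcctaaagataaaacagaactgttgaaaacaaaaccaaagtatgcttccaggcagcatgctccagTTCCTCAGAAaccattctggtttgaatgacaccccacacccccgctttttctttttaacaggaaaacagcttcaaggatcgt
Tmem26: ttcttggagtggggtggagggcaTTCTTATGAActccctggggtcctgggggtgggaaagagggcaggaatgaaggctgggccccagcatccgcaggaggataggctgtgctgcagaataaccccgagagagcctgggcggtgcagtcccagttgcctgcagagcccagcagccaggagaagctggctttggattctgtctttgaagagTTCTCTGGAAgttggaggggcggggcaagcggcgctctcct
The match began 145 bases upstream of the start in Retnla, 82 bases upstream in Pdcd1lg2, and 227 and 41 bases upstream in Tmem26. The windows of Chil3, Mgl2 and Il1rl2 held no match, which says only that these letters are not in these windows. Among genes tested, 9355 had a promoter in the table and 541 of these windows (5.78%) held the palindrome. It was found in 48 of 841 windows (5.71%) of genes called higher, in 12 of 112 (10.7%) of those higher by more than 2-fold, and in 6 of 23 windows (26.1%) of the alternative activation list. For comparison, 45 of 784 windows (5.74%) of genes called lower held it. Of all 27025 windows in the table, 6.76% held it.

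The other promoters shown belong to groups of genes that moved together. Ifit3, an interferon-induced gene lower in M2 cells, holds the core of the interferon-stimulated response element (GAAANNGAAA, on either strand) in the window chr19:34583279-34583528 (plus strand). Ccnb2, which encodes the mitotic cyclin B2 and was lower in M2 cells, holds the CCAAT box bound by NF-Y in the window chr9:70421555-70421804 (minus strand). Mvd, a cholesterol synthesis gene higher in M2 cells, holds the same box in the window chr8:122443423-122443672 (minus strand). Capitals mark the matches, read on either strand.
Ifit3: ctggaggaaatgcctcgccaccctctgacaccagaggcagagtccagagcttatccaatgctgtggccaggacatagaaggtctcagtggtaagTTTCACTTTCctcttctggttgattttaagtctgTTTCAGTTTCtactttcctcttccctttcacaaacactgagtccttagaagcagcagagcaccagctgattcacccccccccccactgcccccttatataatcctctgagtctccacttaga
Ccnb2: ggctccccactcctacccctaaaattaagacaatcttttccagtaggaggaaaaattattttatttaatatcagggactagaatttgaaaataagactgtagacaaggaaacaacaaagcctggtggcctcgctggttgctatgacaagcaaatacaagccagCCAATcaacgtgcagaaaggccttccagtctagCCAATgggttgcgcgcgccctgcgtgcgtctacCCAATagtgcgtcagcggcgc
Mvd: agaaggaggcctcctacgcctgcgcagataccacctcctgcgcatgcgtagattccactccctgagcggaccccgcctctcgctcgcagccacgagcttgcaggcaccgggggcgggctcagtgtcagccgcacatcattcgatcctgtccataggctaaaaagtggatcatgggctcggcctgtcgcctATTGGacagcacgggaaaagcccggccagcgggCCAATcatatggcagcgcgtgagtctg
The response element core was in 14 of 25 windows (56.0%) of the interferon-stimulated list, against 3.55% of windows of genes tested and 3.46% of all windows. Of those 25 windows, 7 (28.0%) also held the STAT6 palindrome. A CCAAT box was in 27 of 36 windows (75.0%) of the mitosis list and 17 of 19 (89.5%) of the cholesterol list, against 40.9% of windows of genes tested and 37.5% of all windows. The boxes began 87, 54 and 21 bases upstream of the start in Ccnb2, and 60 and 27 bases upstream in Mvd. Matches of different motifs were counted separately and may overlap.

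Of 12797 genes tested, 1086 were higher and 1017 lower with IL-4 at an adjusted p of 0.05 in edgeR's quasi-likelihood test. The background of calls was therefore 16.4% of genes tested, with 8.49% higher and 7.95% lower, and the median log2 fold change over all genes tested was -0.02. The larger changes were mostly rises. Among genes called higher, 161 changed by more than 2-fold, 42 by more than 4-fold and 21 by more than 8-fold. Among genes called lower, the same counts were 116, 6 and 1. Calls also moved with abundance: of the 3199 most abundant genes tested, 543 rose and 230 fell, while in the second lowest of 4 equal abundance classes 141 rose and 312 fell. M0 and M2 libraries did not overlap for 1044 genes (8.16% of genes tested): M2 lay above M0 for 608 (4.75%) and below for 436 (3.41%). Of the 19 macrophage identity genes, 3 rose, 7 fell and 9 did not pass.

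**Figure D1:**
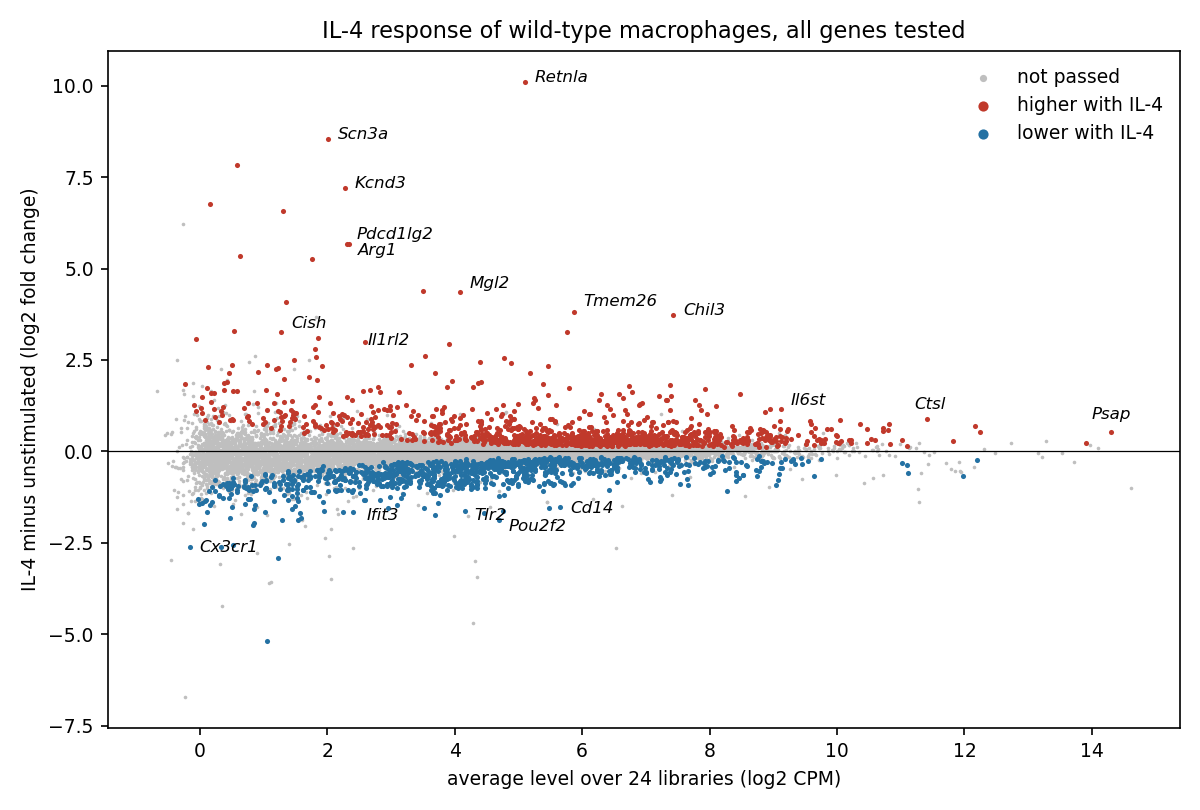
Log2 fold change with IL-4 in wild-type macrophages against the average level over 24 libraries (log2 CPM), each point 1 gene tested; red and blue points passed an adjusted p of 0.05. The largest rises reach far above the falls, led by Retnla, and most calls of abundant genes lie above 0.

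Total counts of the 12 libraries ranged from 7893809 to 12430634. M0 replicates 1 and 4 stood apart on the first principal component, which held 27.2% of the variance, and mitochondrial genes took 7.52% and 5.08% of their counts, against 2.04% to 3.66% in the other 10. Without these 2 libraries 906 genes rose and 767 fell. A few further facts bear on the groups: M0 replicate 3 and M2 replicate 2 carry library numbers apart from the rest, M2 replicate 2 was the extreme M2 library for many genes below, and cultures 1 to 3 and 4 to 6 carry library numbers from 2 series. Culture here means the number that 1 M0 and 1 M2 label share. The labels do not say what these numbers record.

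Retnla rose from near absence. The 6 M0 libraries held 2 counts in all and the 6 M2 libraries held 3240, with M2 levels of 22.9 CPM at the lowest, 38.1 at the median and 95.3 at the highest. The ratio of summed counts was 1566 (exact 95% interval 433 to 12937, counting error only). Both M0 counts were in replicate 3, and without that library the rise was at least 813-fold, with the M0 group set at 3 counts. Retnla lies at chr16:48842551-48844461. Arg1 encodes arginase 1, which splits arginine into ornithine and urea, and lies at chr10:24915221-24927484. Its counts were 0, 0, 1, 1, 1 and 5 in the M0 libraries and 89, 101, 92, 64, 40 and 76 in the M2 libraries. The log2 fold change of Arg1 was 5.66 ± 0.40 (SE, adjusted p = 2.29e-10), and the ratio of summed counts was 55.8, or 126 without M0 replicate 6, which held 5 of the 8 M0 counts. Arg1 was scarce even after IL-4 and reached 9.93 CPM at most.

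Chil3, at chr3:106147554-106167564, encodes the chitinase-like lectin Ym1 and was the most abundant of the 5 markers. Its M0 levels ran from 22.1 to 29.0 CPM with a median of 24.8, and its M2 levels were 135 at the lowest, 262 at the median and 703 at the highest. The groups did not overlap (log2 fold change 3.73 ± 0.41, adjusted p = 1.26e-06). Of the 40-base windows of its transcripts, 34.3% also occur in other genes, most often its near-copy Chil4, so reads may have been split between them. Mgl2, at chr11:70130329-70137550, encodes the galactose-binding lectin CD301b. It was at 0.801 CPM at the M0 median and 19.6 at the M2 median, with a lowest M2 value of 15.1 and a highest M0 value of 1.64 (log2 fold change 4.36 ± 0.22, adjusted p = 3.07e-13). Mgl2 shares 17.6% of its windows with other genes, mainly Clec10a.

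Il1rl2, at chr1:40324610-40367562, encodes the receptor for IL-36 and gave the smallest p of all genes tested. M0 levels were 2.71, 3.31 and 4.54 CPM (lowest, median and highest) and M2 levels 19.4, 21.5 and 22.7. It therefore rose by 2.60 ± 0.11 on the log2 scale (adjusted p = 4.68e-15) with the tightest M2 spread of the 5 markers. Mrc1, the mannose receptor CD206, was already abundant: M0 levels were between 809 and 1004 CPM and M2 levels between 1396 and 1697. Its rise was 0.76 ± 0.09 on the log2 scale (adjusted p = 1.28e-06), far smaller in fold than that of the 5 markers although the groups did not overlap.

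**Figure D2:**
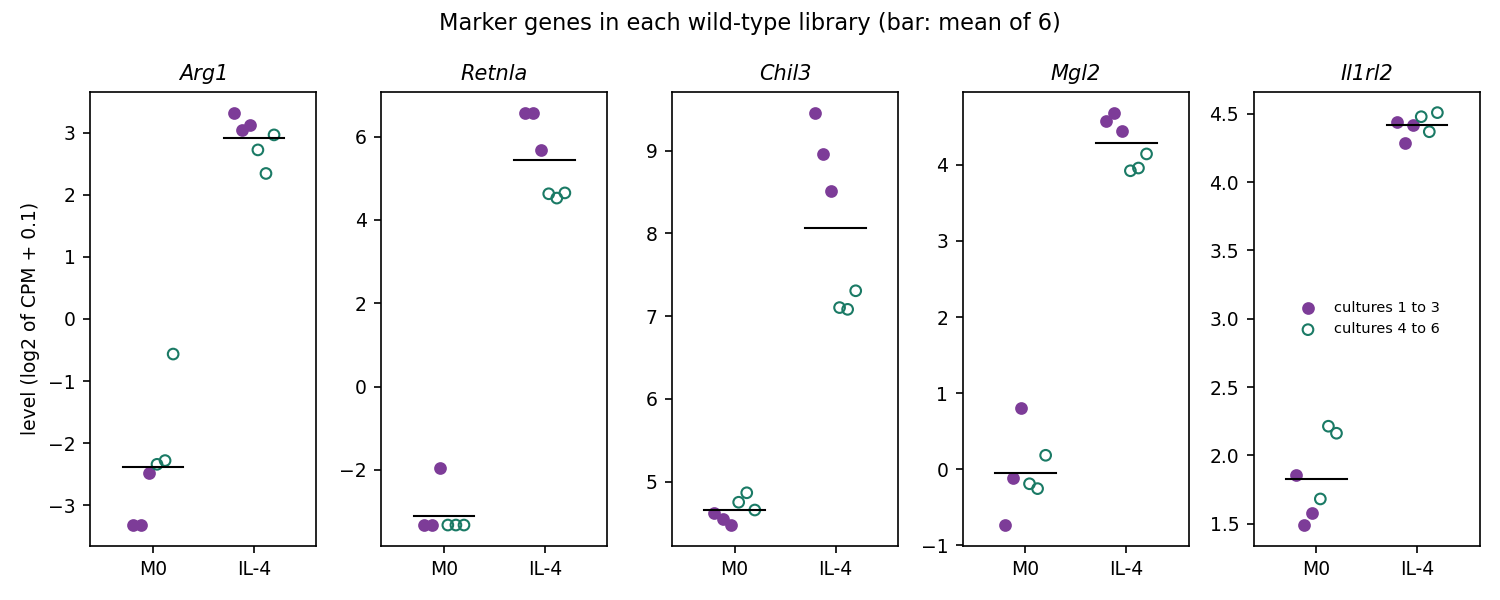
Levels of the 5 marker genes (log2 of CPM + 0.1) in each of the 12 wild-type libraries, with the mean of 6 as a bar; filled points are cultures 1 to 3 and open points cultures 4 to 6. M0 and M2 points do not overlap for any of the 5 genes, and the M2 points of Arg1, Chil3 and Retnla are higher in cultures 1 to 3 than in cultures 4 to 6.

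Of 24 members of the alternative activation list tested, 19 rose and 3 fell (median 2.02 on the log2 scale). The list names genes known to respond to IL-4, so its direction is not independent evidence. Slc7a2, a transporter that brings arginine into the cell, was at 4.71 to 16.0 CPM in M0 libraries and 64.4 to 109 in M2 libraries (log2 fold change 3.26 ± 0.23, adjusted p = 1.01e-09). Tmem26 went from a median of 6.75 CPM to one of 91.1, with no overlap (3.82 ± 0.33 on the log2 scale). Ear2, an eosinophil-type ribonuclease, rose by 2.36 ± 0.43 on the log2 scale, although 50.1% of its windows also occur in other genes, mainly Ear1. The members that fell included F13a1, a coagulation transglutaminase (-0.91 ± 0.19 on the log2 scale, adjusted p = 0.00140), and Stab1, the scavenger receptor stabilin-1 (-0.73 ± 0.14, adjusted p = 0.000800). F13a1 and Stab1 are often named as alternative activation markers, and here every M2 library was below every M0 library for both.

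Of 21 genes of the IL-4 receptor, its JAK-STAT pathway and feedback inhibitors tested, 4 rose and 4 fell; without M0 replicate 2 or 6, or M2 replicate 1 or 3, only 2 fell. Cish, a STAT-induced inhibitor of cytokine receptors, was at 0.105, 0.372 and 0.753 CPM in M0 libraries (lowest, median and highest) and at 1.99, 3.14 and 6.80 in M2 libraries (log2 fold change 3.26 ± 0.45, adjusted p = 7.52e-06). Socs1, which blocks JAK kinases, rose by 2.18 ± 0.46 on the log2 scale (adjusted p = 0.00137). Its highest M2 value, 5.74 CPM, was in replicate 2, far from the M2 median of 2.23. Jak2, a receptor-bound kinase, rose from a median of 45.9 to 108 CPM with no overlap.

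Il4ra, the receptor chain that binds IL-4, had medians of 71.8 CPM in M0 and 69.4 in M2 libraries, and its log2 fold change was 0.05 ± 0.09 (adjusted p = 0.787). Stat6 itself was at 232 and 220 CPM (-0.05 ± 0.04 on the log2 scale, adjusted p = 0.449). Il13ra1, the partner chain of the alternative receptor, fell by 0.53 ± 0.15 on the log2 scale (adjusted p = 0.0152), and its call was lost without M0 replicates 1 and 4, where the value was -0.46. Ptpn6, the phosphatase SHP-1 that damps cytokine signalling, fell by 0.38 ± 0.08 on the log2 scale (adjusted p = 0.00139).

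Of 35 transcription factors listed for macrophage polarization, 13 rose and 5 fell. Nfil3, a basic leucine zipper repressor, moved from 4.12 to 5.08 CPM in M0 libraries to 13.6 to 29.5 in M2 libraries (log2 fold change 2.15 ± 0.17, adjusted p = 1.70e-09). Irf4, a factor required for many IL-4 responses in macrophages, had medians of 0.777 and 2.93 CPM (2.04 ± 0.27 on the log2 scale, adjusted p = 5.60e-06). Bhlhe40 had medians of 55.5 and 162 CPM, Egr2 of 42.6 and 108, and Klf4 of 2.23 and 7.82, and none of these 3 overlapped between the groups. Batf3, whose groups overlapped, rose by 1.49 ± 0.30 on the log2 scale (adjusted p = 0.000868). Pparg, the nuclear receptor for fatty acids, was already at a median of 81.3 CPM and rose to 117 (0.55 ± 0.08 on the log2 scale).

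Pou2f2, which encodes the octamer-binding factor Oct-2, showed the largest fall among the abundant named genes. Its M0 levels were 31.4, 37.3 and 58.7 CPM and its M2 levels 7.81, 11.1 and 13.3 (log2 fold change -1.86 ± 0.15, adjusted p = 1.69e-09). The highest value was in M0 replicate 1, and the M2 libraries lay below all M0 libraries. Nr4a1, an immediate early nuclear receptor, fell by 1.29 ± 0.22 on the log2 scale and Maf by 0.64 ± 0.11, both without overlap. Other large falls were in Ctla2b (-1.73 ± 0.27 on the log2 scale, with 72.6% of its windows also in other genes), Pcp4l1 (-1.53 ± 0.26) and the RNA-binding Nanos1 (-1.34 ± 0.22). Immediate early genes did not move as 1 group: of 26 tested, 7 rose and 4 fell. Dusp1, a phosphatase of p38 and JNK, had medians of 50.5 and 24.2 CPM (-1.09 ± 0.09 on the log2 scale, adjusted p = 3.66e-09), and Fos had medians of 57.7 and 31.5, while Ier3 had medians of 6.89 and 18.1.

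Genes with 3 or fewer M0 counts in all that passed the test numbered 7, and 0 genes passed with 3 or fewer M2 counts. Genes this scarce in M0 libraries could pass the count filter only through another group where they were higher. The direction of their change is therefore not independent evidence. Beside Retnla the 7 genes were Kcnd3, Scn3a, Gm8221, Cldn11, Il31ra and Rnase2a. Scn3a, a voltage-gated sodium channel subunit, had 0 counts in M0 and 294 in M2 libraries, at least 94.7-fold higher with the M0 group set at 3 counts. Kcnd3, a voltage-gated potassium channel subunit, had 3 and 573 counts, a ratio of 185 (exact 95% interval 62.9 to 898), or 472 without M0 replicate 2. M2 levels were 1.83 to 8.17 CPM for Scn3a and 6.31 to 15.3 for Kcnd3, so both transcripts were scarce. Cldn11, a tight junction protein, had 1 and 173 counts, a ratio of 167 (29.6 to 6643). Its only M0 count was in replicate 4, and without that library it was at least 45.8-fold higher.

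Il31ra, a receptor chain of the IL-6 family, had 2 and 115 counts, a ratio of 55.6 (15 to 464), which was 95.8 without M0 replicate 1 and 86.5 without M0 replicate 3. Rnase2a, an eosinophil-associated ribonuclease, had 0 and 84 counts, at least 27.1-fold higher. Gm8221 had 0 and 184 counts, but 56.3% of its windows also occur in other genes, most of them in Apol7c. Apol7c, an apolipoprotein L family gene, had M2 levels of 7.62, 13.5 and 53.3 CPM against an M0 median of 0.940 (log2 fold change 4.39 ± 0.56), and the 2 genes cannot be told apart with certainty by these reads.

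Pdcd1lg2 was the largest rise among immune checkpoint genes. Its M0 levels were 0, 0.156 and 0.345 CPM and its M2 levels 3.11, 6.92 and 16.7 (log2 fold change 5.67 ± 0.57, adjusted p = 1.15e-07). Cd274, which encodes the other PD-1 ligand PD-L1, was far more abundant and went from a median of 141 to one of 311 CPM (1.14 ± 0.11 on the log2 scale). Icosl, the ligand of the costimulator ICOS, fell by 1.58 ± 0.32 on the log2 scale from a median of 1.98 CPM. Of 19 costimulatory and checkpoint genes tested, 2 rose and 2 fell (21.1% called, against 16.4% of all genes tested). Without M2 replicate 2 the number that rose was 4.

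Of 28 Toll-like and pattern recognition genes tested, 11 fell, 1 rose and 16 did not pass. Tlr2, the receptor for bacterial lipoproteins, was at 20.2, 21.6 and 40.4 CPM in M0 libraries and at 7.01, 8.13 and 11.3 in M2 libraries (log2 fold change -1.63 ± 0.16, adjusted p = 2.67e-08). Cd14, the co-receptor for endotoxin, was at 43.3, 69.9 and 91.2 CPM against 16.2, 23.4 and 28.1 (-1.53 ± 0.18, adjusted p = 1.13e-06). Tlr4, the endotoxin receptor that works with CD14, had medians of 149 and 160 CPM (0.07 ± 0.10, adjusted p = 0.716). Tlr9, the receptor for bacterial DNA, fell by 0.79 ± 0.14 on the log2 scale, and Nlrp3, the inflammasome sensor, by 1.14 ± 0.13, both without overlap.

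C-type lectins changed in both directions, with 5 of 20 higher and 5 lower. Clec7a, the beta-glucan receptor dectin-1, was at 553, 682 and 1096 CPM in M0 libraries and 1169, 1343 and 1851 in M2 libraries (log2 fold change 0.87 ± 0.16, adjusted p = 0.000295). Clec4a3 rose by 0.77 ± 0.13 on the log2 scale. Clec4n, which encodes dectin-2, fell from a median of 34.8 to 14.2 CPM (-1.63 ± 0.22), and Clec4e, the mycobacterial glycolipid receptor Mincle, fell by 1.63 ± 0.32 on the log2 scale. Clec12a, an inhibitory receptor, fell from 405 to 195 CPM (-1.07 ± 0.08, adjusted p = 1.23e-09). All 3 that fell had every M2 library below every M0 library.

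Of 24 genes of Fc receptors and immunoreceptor signalling, 13 fell and 2 rose, with a median of -0.26 on the log2 scale. The inhibitory IgG receptor Fcgr2b was 1 of the 2 that rose: M0 levels were 142, 178 and 349 CPM and M2 levels 435, 551 and 843 (log2 fold change 1.56 ± 0.21, adjusted p = 1.52e-05). Fcgr1, the high-affinity activating IgG receptor, fell from a median of 115 to 78.3 CPM with overlap (-0.53 ± 0.09). The paired receptors Pilra and Pilrb1 fell by 1.32 ± 0.26 and 2.02 ± 0.37 on the log2 scale, but 41.3% of the windows of Pilrb1 and 24.1% of those of Pilra also occur in other genes. Olr1, the scavenger receptor LOX-1, rose by 1.85 ± 0.38 on the log2 scale to a median of 1.12 CPM. Gpr34, a receptor for lysophosphatidylserine, fell by 1.55 ± 0.21 on the log2 scale.

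Inflammatory genes fell where they changed. Of 19 classical inflammatory genes tested, 8 fell and 0 rose, with a median of -0.47 on the log2 scale; 10 further listed genes, among them Il1b, Il6 and Nos2, were too low to be tested. Ccl3 and Ccl4, inflammatory chemokines, had medians of 61.9 and 33.9 CPM in M0 libraries and 33.4 and 16.7 in M2 libraries (-0.93 ± 0.18 and -1.0 ± 0.20 on the log2 scale). Cxcl10, an interferon-induced chemokine, fell by 1.98 ± 0.49 on the log2 scale and Cxcl2, a neutrophil chemokine, by 1.46 ± 0.38, both from M0 medians of 1.26 and 0.662 CPM. Il18, a cytokine of the IL-1 family, fell by 0.65 ± 0.13 on the log2 scale. Tnf had medians of 8.43 and 6.77 CPM and did not pass (-0.31 ± 0.11, adjusted p = 0.0596). Nfkbiz, an inducible regulator of NF-kB, fell by 1.13 ± 0.27 on the log2 scale.

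Some chemokines rose. Ccl7, a CCR2 ligand, was at 4.27, 6.66 and 11.9 CPM in M0 libraries and 31.9, 42.3 and 61.6 in M2 libraries (log2 fold change 2.55 ± 0.38, adjusted p = 5.65e-05). Ccl12, also a CCR2 ligand, rose by 2.29 ± 0.36 on the log2 scale to a median of 3.59 CPM. Ccl2, the other CCR2 ligand of the list, did not pass (1.04 ± 0.38 on the log2 scale, adjusted p = 0.0636), but passed in DESeq2 (adjusted p = 0.0306), with limma on GETMM, with wild-type libraries alone, with cultures 4 to 6 alone and without M0 replicate 5 or M2 replicate 2. In all, 5 of 19 chemokines rose and 5 fell. Among 15 chemoattractant receptors tested, Ccr1 was the member that rose (0.69 ± 0.09 on the log2 scale, from a median of 97.3 to 154 CPM) and 4 fell. Cx3cr1, the fractalkine receptor, fell by 2.61 ± 0.53 on the log2 scale, from a median of 1.16 to 0.191 CPM, and Cxcr3 by 1.50 ± 0.25.

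Interferon-stimulated genes were lower or not called. Of 35 tested, 15 fell and 0 rose, with a median of -0.37 on the log2 scale. Ifit3, whose promoter is shown above, was at 14.5, 17.8 and 27.3 CPM in M0 libraries and 3.90, 5.42 and 12.1 in M2 libraries (log2 fold change -1.54 ± 0.23, adjusted p = 3.04e-05), and 56.2% of its windows also occur in its copy Ifit3b. Ifit2 fell by 1.22 ± 0.24 and Oas2, an antiviral RNA sensor, by 1.19 ± 0.23 on the log2 scale, both with overlap between the groups. The count rested on single libraries: 9 fell without M0 replicate 4, 5 without M0 replicate 5, 6 without M2 replicate 1 and 6 without M2 replicate 2. The summed level of the list was 1056 to 1559 CPM in M0 libraries, highest in replicate 5, and 890 to 1161 in M2 libraries.

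**Figure D3:**
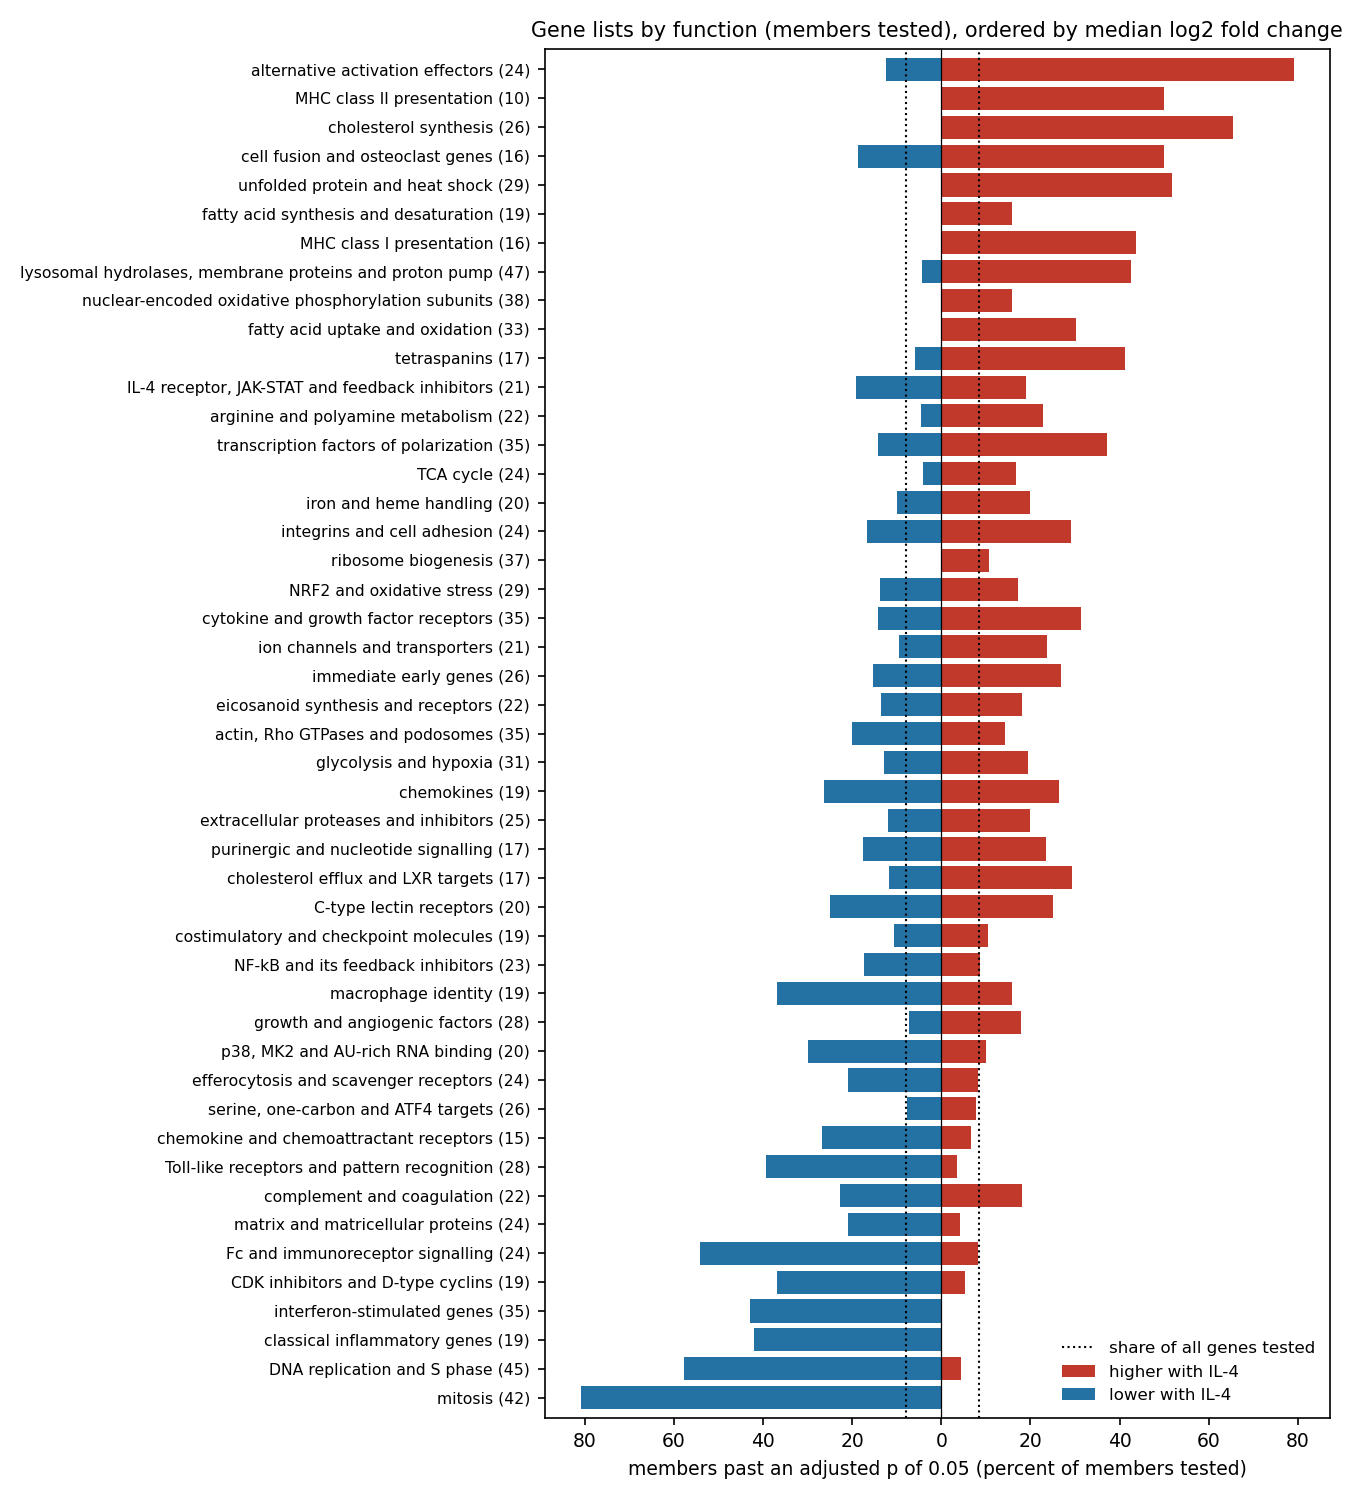
Share of tested members called higher (right, red) or lower (left, blue) with IL-4 in each list of genes by function, ordered by median log2 fold change, with the number tested in brackets; dotted lines are the shares of all genes tested, 8.49% and 7.95%. Alternative activation, MHC class II and cholesterol genes are at the top, and mitosis, DNA replication, inflammatory and interferon-stimulated genes at the bottom.

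Cholesterol synthesis genes rose together by small amounts. Of 26 tested, 17 rose and 0 fell, all 26 estimates were above 0, and the median was 0.39 on the log2 scale. Dhcr7, which makes the last step to cholesterol, was at 19.1, 21.6 and 26.9 CPM in M0 libraries and 32.3, 35.7 and 46.3 in M2 libraries (log2 fold change 0.76 ± 0.11, adjusted p = 9.54e-06). Mvd, an enzyme of the mevalonate pathway, rose by 0.72 ± 0.13 on the log2 scale without overlap. Sqle, which epoxidises squalene, rose by 0.57 ± 0.11 on the log2 scale with overlap. Fdps rose by 0.65 ± 0.12 on the log2 scale, and 27.3% of its windows also occur in other genes. The cholesterol exporter Abcg1 also rose, from a median of 314 to 471 CPM (0.65 ± 0.11 on the log2 scale).

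In fatty acid synthesis, 3 of 19 genes rose and 0 fell (15.8% called). Scd2, a fatty acid desaturase, went from a median of 117 to 224 CPM (log2 fold change 0.95 ± 0.13, adjusted p = 9.54e-06), and Acaca, the enzyme that commits carbon to fatty acids, rose by 0.45 ± 0.06 on the log2 scale, although 31.9% of its windows also occur in other genes. In fatty acid uptake and oxidation, 10 of 33 genes rose and 0 fell. Ppargc1b, a coactivator of mitochondrial genes known in IL-4 responses, had medians of 1.60 and 3.48 CPM (1.07 ± 0.20 on the log2 scale). Of 38 nuclear-encoded oxidative phosphorylation subunits 6 rose and 0 fell (15.8% called). Among all genes tested 16.4% were called in either direction and 8.49% were called higher. Of the 38 estimates 37 were above 0, with a median of 0.17 on the log2 scale. The number of these subunits that rose was 3 without M0 replicate 4 or M2 replicate 2 and 1 without both M0 replicates 1 and 4. Atp5b, the ATP synthase beta subunit, rose by 0.31 ± 0.07 on the log2 scale. In glycolysis 6 of 31 rose and 4 fell: Hk2, a hexokinase, rose by 0.66 ± 0.11 and Ldha, lactate dehydrogenase A, by 0.43 ± 0.09 on the log2 scale.

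Of 22 genes of arginine and polyamine metabolism tested, 5 rose and 1 fell. Besides Arg1 and Slc7a2, Eif5a, the target of polyamine-dependent hypusine modification, rose from a median of 299 to 429 CPM (log2 fold change 0.53 ± 0.07, adjusted p = 2.04e-06). The polyamine enzymes Sat1, an acetyltransferase, and Amd1, which makes decarboxylated S-adenosylmethionine, rose by 0.41 ± 0.07 and 0.38 ± 0.07 on the log2 scale. However, 80.5% of the windows of Amd1 also occur in other genes, mainly Amd2, so its reads may have been split between them. Odc1, which makes the polyamine putrescine from ornithine, had medians of 66.7 and 71.5 CPM and did not pass (0.17 ± 0.07, adjusted p = 0.0836). Other genes share 27.8% of the windows of Odc1. Smox, a spermine oxidase, fell by 0.43 ± 0.11 on the log2 scale.

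Lysosomal genes held the largest gains in transcript abundance. Of 47 tested, 20 rose and 2 fell. On the authors' length-scaled GETMM signal, which allows levels of different genes to be compared, Psap, the precursor of the saposins that help lysosomal lipid breakdown, gained the most: its level was 11616 ± 1754 in M0 and 5238 more in M2 libraries (SD, n = 6). Its log2 fold change was 0.53 ± 0.10 (adjusted p = 0.000321). Ctsl, the protease cathepsin L, gained 4385, and its CPM ran from 3228 to 4571 in M0 and from 5779 to 6864 in M2 libraries, although 27.1% of its windows also occur in other genes. The proton pump subunits Atp6v0a1 and Atp6v1b2 both rose by 0.61 on the log2 scale (SE 0.06 and 0.11). Cd63, a tetraspanin of late endosomes, rose by 0.43 ± 0.07 on the log2 scale.

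Other abundant transcripts gained or lost as well. Lgals3, the lectin galectin-3, went from a median of 3627 to 5315 CPM (log2 fold change 0.53 ± 0.09) and Tfrc, the transferrin receptor, from 2096 to 4043 (0.89 ± 0.13). Slc40a1, the iron exporter ferroportin, went the opposite way to Tfrc, from a median of 659 to 406 CPM (-0.79 ± 0.10), and neither gene's groups overlapped. Anxa1, a phospholipid-binding protein, rose by 0.75 ± 0.06 on the log2 scale. Gpnmb, the most abundant of these genes at a GETMM level of 17384 ± 2120 in M0 libraries, rose by 0.24 ± 0.07 on the log2 scale (adjusted p = 0.0222), a call lost without M0 replicate 2, 5 or 6 or M2 replicate 2. Losses were led by Selenop, a secreted selenium carrier (-0.66 ± 0.13), Tmsb4x, an actin-binding peptide (-0.32 ± 0.09, a call lost without M0 replicate 2), and Cd5l, a secreted scavenger protein (-0.58 ± 0.14).

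**Figure D4:**
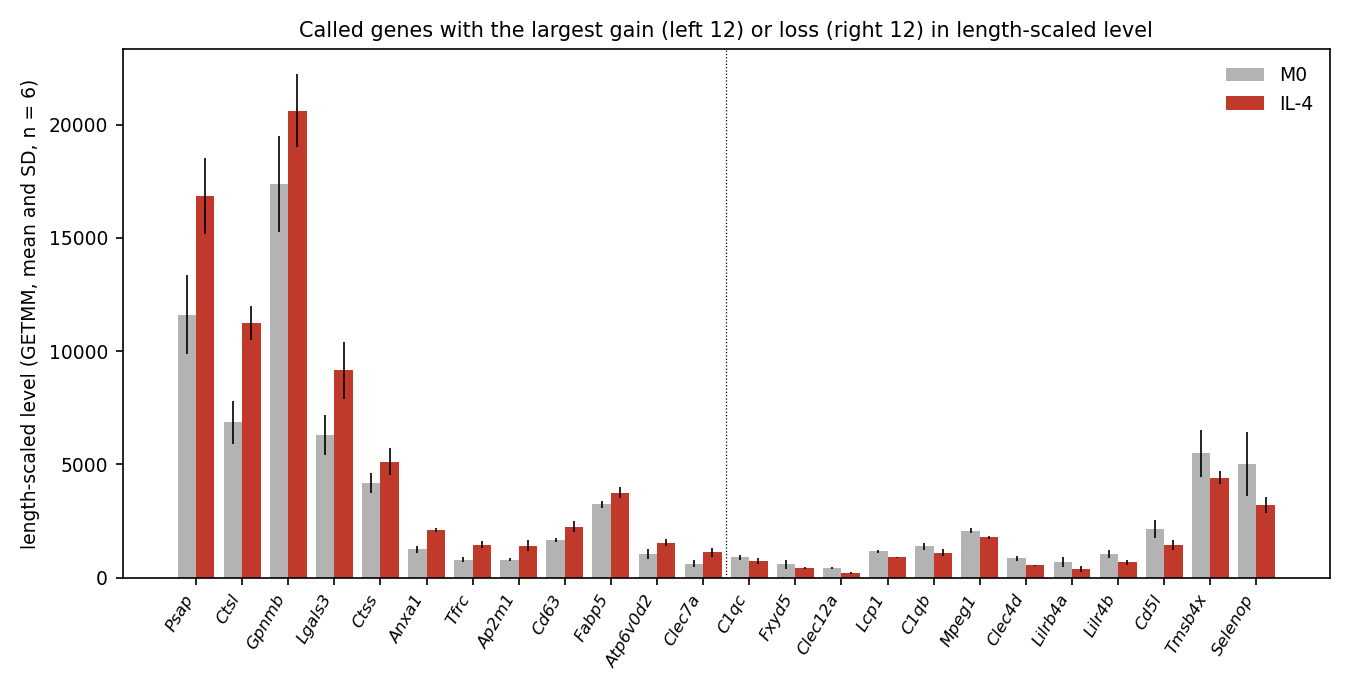
Length-scaled level (GETMM, mean and SD of 6 libraries) in M0 and M2 cells for the called genes with the 12 largest gains (left) and 12 largest losses (right). Psap and Ctsl show the largest gains, and Selenop and Tmsb4x the largest losses.

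Of 29 genes of the unfolded protein and heat shock responses, 15 rose, 0 fell and 14 did not pass. Pdia4, a protein disulfide isomerase of the endoplasmic reticulum, was at 85.3, 87.3 and 91.9 CPM in M0 libraries and 178, 211 and 329 in M2 libraries (log2 fold change 1.40 ± 0.12, adjusted p = 8.55e-09). The chaperone component Sdf2l1 rose by 0.58 ± 0.14 and the transcription factor Xbp1 by 0.42 ± 0.07 on the log2 scale. In MHC class I presentation, 7 of 16 rose and 0 fell, led by the immunoproteasome subunit Psmb10 (1.20 ± 0.18, from a median of 23.7 to 45.3 CPM). H2-T23 rose by 0.64 ± 0.13 and the peptide-loading protein Tapbp by 0.56 ± 0.11 on the log2 scale, although 19.7% and 25.0% of their windows also occur in other genes.

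For MHC class II, 5 of 10 genes rose, 3 without M0 replicate 5, without M2 replicate 1 or without both M0 replicates 1 and 4, and all 10 estimates were above 0 with a median of 0.77 on the log2 scale. H2-DMa, which loads peptide onto class II, rose by 0.86 ± 0.16 on the log2 scale, and Ifi30, a lysosomal thiol reductase, by 0.81 ± 0.22. The structural gene H2-Aa was at 14.7, 17.6 and 37.1 CPM in M0 and 16.1, 27.9 and 69.0 in M2 libraries, and the groups overlapped (0.74 ± 0.41, adjusted p = 0.247).

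Of 16 cell fusion and osteoclast genes tested, 8 rose and 3 fell, and of 24 integrin and adhesion genes 7 rose and 4 fell, with a median of 0.08 on the log2 scale. Itgb3, the beta 3 integrin, was at 50.7 to 92.5 CPM in M0 and 174 to 216 in M2 libraries (log2 fold change 1.41 ± 0.15, adjusted p = 2.42e-07). Acp5, tartrate-resistant acid phosphatase, rose by 1.16 ± 0.26, Ctsk, cathepsin K, by 0.61 ± 0.11, and Ocstamp, a membrane protein needed for cell fusion, by 2.13 ± 0.49 on the log2 scale, the last from a median of 0.263 to 1.25 CPM. Itgax, the integrin CD11c, rose from a median of 107 to 328 CPM (1.70 ± 0.23). Of 35 actin genes 5 rose and 7 fell. The actin regulators Marcksl1, Arap3 and Lsp1 fell by 1.67 ± 0.21, 1.48 ± 0.18 and 1.19 ± 0.20 on the log2 scale, all without overlap.

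Cytokine receptors rose in 11 of 35 cases and fell in 5. Il6st, the shared signalling chain gp130, was at 317, 326 and 371 CPM in M0 and 614, 749 and 860 in M2 libraries (log2 fold change 1.17 ± 0.07, adjusted p = 2.19e-11). Csf2rb, the beta chain of the GM-CSF and IL-3 receptors, rose by 1.16 ± 0.11 on the log2 scale, and 15.5% of its windows also occur in other genes, mainly Csf2rb2. Flt1, the receptor VEGFR1, rose by 2.81 ± 0.33 on the log2 scale from a median of 0.526 to 3.52 CPM. The number of receptors that fell was 3 without M0 replicate 1 or 5 and 2 without M2 replicate 2.

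Secreted and coagulation factors included several large rises. F10, coagulation factor X, was at 12.7, 15.5 and 20.3 CPM in M0 libraries and 59.5, 76.6 and 116 in M2 libraries (log2 fold change 2.35 ± 0.23, adjusted p = 1.13e-07). F7, factor VII, went from a median of 28.4 to 93.9 CPM, Vwf, von Willebrand factor, from 54.6 to 131, and complement C3 from 16.3 to 31.1, and none of these overlapped between the groups. In that list of 22 genes, 4 rose and 5 fell, which was 3 without M2 replicate 3. Ptgs1, the constitutive cyclooxygenase, rose by 2.41 ± 0.16 on the log2 scale (adjusted p = 9.36e-11), while the prostaglandin E2 receptors Ptger2 and Ptger4 changed by 1.22 ± 0.16 and -0.90 ± 0.10. Mcf2l, a guanine nucleotide exchange factor, rose by 2.46 ± 0.16 and Lipn, a lipase, by 2.93 ± 0.24 on the log2 scale.

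The series title concerns angiogenic factors, and of 28 growth and angiogenic factors tested 5 rose and 2 fell. That is 25.0% called, against 16.4% of all genes tested. Angptl2, an angiopoietin-like secreted protein, was at 46.7, 54.1 and 66.4 CPM in M0 and 132, 182 and 283 in M2 libraries (log2 fold change 1.81 ± 0.15, adjusted p = 6.24e-09). The matrix metalloproteinase Mmp19 rose by 1.14 ± 0.12 on the log2 scale, although 25.5% of its windows also occur in other genes, and Hbegf, an EGF receptor ligand, by 0.89 ± 0.14. Vegfa, the main angiogenic growth factor, fell from a median of 26.6 to 19.7 CPM with overlap (-0.43 ± 0.10, adjusted p = 0.00432). Cxcl12, a chemokine that attracts CXCR4-bearing cells, had medians of 6.60 and 6.82 CPM (-0.09 ± 0.26, adjusted p = 0.864). Fibronectin, from Fn1, was the matrix gene that rose, from a median of 109 to 249 CPM (1.51 ± 0.28), while 5 of 24 matrix genes fell. The share of matrix genes called was also 25.0%. Mapkapk2 had medians of 117 and 116 CPM (0.01 ± 0.07, adjusted p = 0.926).

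Proliferation genes were lower in M2 libraries. Of 42 mitosis genes tested, 34 fell and 0 rose, all 42 estimates were below 0, and the median was -0.80 on the log2 scale. Nusap1, a spindle protein, was at 17.4, 26.3 and 32.0 CPM in M0 and 7.04, 13.6 and 17.2 in M2 libraries (log2 fold change -1.01 ± 0.24, adjusted p = 0.00498). Ccnb2, shown above with its CCAAT boxes, fell from a median of 17.6 to 9.85 CPM (-0.96 ± 0.22), Birc5, survivin, from 20.9 to 12.1, and Ndc80, a kinetochore protein, from 21.3 to 10.3. The count moved with the setting: 16 fell with no count filter, 15 without the 3 libraries numbered apart and 17 with cultures 1 to 3 alone. In bulk RNA, fewer dividing cells and less of these transcripts per cell cannot be told apart.

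DNA replication genes were also lower, with 26 of 45 called lower, 2 higher and a median of -0.48 on the log2 scale. Pole, the catalytic subunit of DNA polymerase epsilon, fell from a median of 16.9 to 9.17 CPM (-0.91 ± 0.18, adjusted p = 0.000831), and Clspn, a checkpoint adaptor, by 0.96 ± 0.24 on the log2 scale. Dut, which removes dUTP, was 1 of the 2 that rose (0.74 ± 0.18). The number called lower was 17 without M0 replicate 3, 16 without M0 replicate 5, 16 without M0 replicate 6, 14 without M2 replicate 1, 14 without M2 replicate 2 and 16 without M2 replicate 3. Among 19 CDK inhibitors, D-type cyclins and related genes, 7 fell and 1 rose, and 4 fell without M2 replicate 2. Ccnd3, cyclin D3, fell by 0.69 ± 0.17 and the repressor E2f7 by 0.90 ± 0.22 on the log2 scale.

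Calls of smaller or noisier changes rested on fewer libraries, and 18 such genes are given together. Most overlapped between the groups, and each lost its call under at least 1 alternative. Further named genes whose call was lost with a set of cultures alone are given in the last section. In presentation and lectins, Ciita, the master regulator of MHC class II genes, rose by 1.07 ± 0.37 on the log2 scale, the lysosomal protease Ctss by 0.29 ± 0.09 and the lectin Clec10a by 0.66 ± 0.18. The call of Ciita was lost in 9 of the 12 fits that leave out 1 library, and that of Ctss without M0 replicate 5 or M2 replicate 1. The chemokine Ccl8 (1.01 ± 0.33, call lost in 9 of 12), the fusion protein Dcstamp (1.14 ± 0.35, lost in 6), the IL-27 receptor Il27ra (0.92 ± 0.25) and the adenosine receptor Adora2b (0.99 ± 0.29) rose as well. Echs1, an enzyme of fatty acid oxidation (0.44 ± 0.11), and Cox5a, a subunit of cytochrome oxidase (0.36 ± 0.10), had every M2 library above every M0 library.

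Falls of the same kind were found in Fcer1g, the signalling chain of Fc receptors (-0.28 ± 0.09, call lost in 8 of 12), the scavenger receptor Marco (-1.01 ± 0.33, lost in 7) and the ADP receptor P2ry12 (-0.92 ± 0.31, lost in 6). The interferon-stimulated Irf7 (-0.66 ± 0.22) lost its call in 8 of 12 and Mx1 (-1.05 ± 0.30) without M0 replicate 5. Mki67, the proliferation antigen Ki-67, fell from a median of 219 to 126 CPM (-0.89 ± 0.24) and the origin-binding Orc1 by 0.88 ± 0.26 on the log2 scale (lost in 3). C1qa, a complement C1q chain (-0.51 ± 0.15, lost without M2 replicate 3), and the glucose transporter Slc2a3 (-0.57 ± 0.16) also fell. Without M0 replicates 1 and 4 together, 15 of these 18 calls were lost; those of Irf7, Slc2a3 and Ctss were not.

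The IL-4 response was compared between cultures 1 to 3 and cultures 4 to 6, and the few calls were not stable. In a test of that difference over 12923 genes, 3 passed (0.0232%), all with a smaller response or a fall in cultures 4 to 6. An unadjusted p under 0.05 was found for 246 genes, a smaller share than the 0.05 that chance gives. Chil3 in M2 libraries was at 703, 497 and 366 CPM in cultures 1 to 3 and at 137, 135 and 158 in cultures 4 to 6, while its M0 levels were alike (22.1 to 29.0). Its rise was 4.49 ± 0.21 and 2.41 ± 0.19 on the log2 scale, a difference of -2.08 ± 0.26 (adjusted p = 0.0212). Tmem26 differed by -2.46 ± 0.30 (adjusted p = 0.0212), and its M0 levels differed as well: they were 3.89, 1.88 and 3.36 CPM in cultures 1 to 3 and 9.90, 9.60 and 12.3 in cultures 4 to 6. Slc7a2 had the same order of M0 and M2 levels but did not pass (-1.51 ± 0.28, adjusted p = 0.256), and for Mgl2 the difference was -0.23 ± 0.42 (adjusted p = 1.000).

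Mir6236 was the other gene that passed (-4.43 ± 0.62, adjusted p = 0.0400). Its M0 levels were 1.63, 0.942 and 1.33 CPM in cultures 1 to 3 and 10.4, 19.1 and 5.41 in cultures 4 to 6. The calls were not stable: 0 genes passed without the 2 wild-type libraries numbered apart, and 0 passed without M0 replicate 2, 3, 4 or 5 or M2 replicate 4 or 5. With each of the 12 libraries left out in turn, the difference for Chil3 ranged from -2.28 to -1.80 and passed in 3 fits, that for Tmem26 passed in 6 and that for Mir6236 in 1. In the 12 knockout libraries, where the same test was added after seeing the data, 0 genes passed and 1760 had an unadjusted p under 0.05. The differences there were -0.26 ± 0.62 for Chil3 and -0.29 ± 0.60 for Tmem26 (adjusted p = 0.879 and 0.855).

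In M2 libraries neutrophil markers moved with the culture numbers. The summed level of 15 markers there was 448, 342 and 305 CPM in cultures 1 to 3 and 241, 229 and 207 in cultures 4 to 6. In M0 libraries it was 334, 317 and 284 CPM in cultures 1 to 3 and 356, 296 and 281 in cultures 4 to 6. Of 10 markers tested for the IL-4 response, 2 were called higher, Csf3r and Mmp8, and 0 lower, with a median of -0.23 on the log2 scale. Ltf and Lcn2, granule proteins of neutrophils, were among the genes with the smallest p in the test between culture numbers, and the defining marker Ly6g had 5 counts in M0 and 8 in M2 libraries in all. Their part in the Chil3 difference was not tested.

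**Figure D5:**
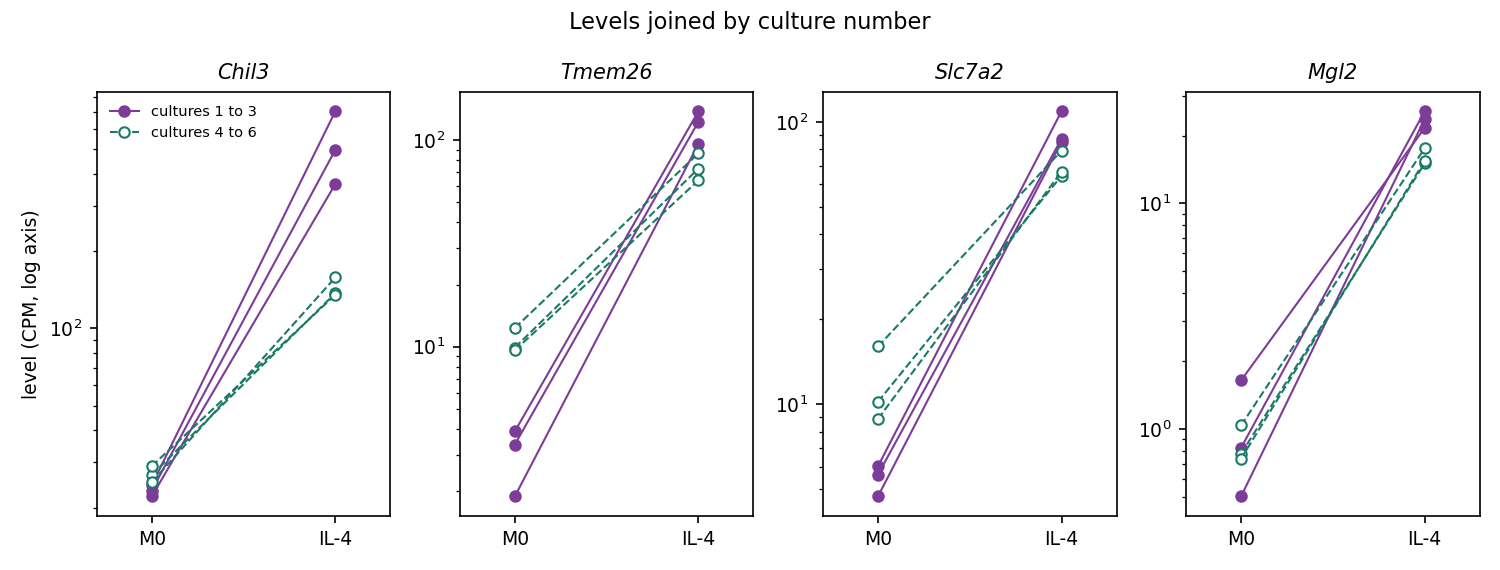
Levels of 4 genes (CPM, log axis) in M0 and M2 libraries joined by culture number; filled points and solid lines are cultures 1 to 3, open points and dashed lines cultures 4 to 6. Chil3 separates the cultures in M2 libraries only, Tmem26 and Slc7a2 separate them in M0 libraries as well, and the M2 levels of Mgl2 lie between 15.1 and 25.6.

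Markers of other cell types were at most modest. For T and NK cells 2 of 16 markers were tested and 0 passed. Their summed level, 328 to 534 CPM in M0 and 324 to 452 in M2 libraries, was nearly all Il7r and Cd4, and Cd3e had 2 counts in each group. Dendritic cell markers summed to 137 to 170 CPM in M0 and 325 to 556 in M2 libraries, with 2 of 7 tested called higher. The genes called were Itgax, which made up most of the sum, and Batf3 (107 and 321 counts in M0 and M2 libraries). Bst2 had 1892 and 2625 counts, while Flt3 had 11 and 6 counts, Xcr1 12 and 12, and Cd209a 4 and 1. Endothelial markers summed to 99.6 to 134 CPM in M0 and 178 to 256 in M2 libraries. Of 6 tested, 3 were called higher, Vwf, Flt1 and Pecam1, while Eng had 2680 and 3124 counts, Kdr 250 and 186, Cdh5 75 and 39, Tie1 16 and 14, Tek 2 and 3, and Cldn5 0 and 1. The part of other cells in these sums was not tested. Stromal markers summed to 120 to 181 CPM in M0 and 110 to 150 in M2 libraries, with 1 of 14 called lower. B cell markers summed to 36.4 to 75.7 and 38.9 to 62.6 CPM.

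The same contrast in the MK2 knockout cells called 1563 genes higher and 1461 lower. Of the genes called, 1794 were called in both genotypes with the same direction, which is 85.3% of the wild-type calls and 59.3% of the knockout calls. In edgeR's test of the difference between the responses, 0 of 12797 genes passed (0% called), against 1 in DESeq2. An unadjusted p under 0.05 in edgeR was found for 390 genes, a smaller share than the 0.05 that chance gives. A p that misses the threshold does not show that the responses were alike. For Mgl2 the rise was 4.36 ± 0.22 in wild type and 6.06 ± 0.22 in knockout cells, a difference of -1.71 ± 0.37 (adjusted p = 0.406), and for Il1rl2 it was 2.60 ± 0.11 and 2.93 ± 0.11 (-0.34 ± 0.15, adjusted p = 1.000).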

How the data were processed

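RNA was measured in 24 libraries, of which the 12 wild-type ones are described and the 12 knockout ones entered the fit. Per the labels' protocols, total RNA was made into libraries by Kapa Hyperprep and read as 40 bp single ends; the labels do not say whether strand was kept, so reads of overlapping and antisense genes cannot be told apart. The deposited expected counts are whole numbers, rounded by the authors. Build mm10, Bowtie2 2.3.4.1, RSEM 1.3.0, CASAVA 2.8.0 and edgeR appear in the submitters' processing notes. The authors also deposited a GETMM signal, which equals the expected count times 1 factor per gene and 1 per library.

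edgeR's filterByExpr (minimum count 10) retained 12797 of 54429 symbols, holding 99.8% of counts. All 4 groups entered 1 robust quasi-likelihood fit in edgeR 4.0.16 (R 4.3.3) with TMM scaling and without covariates. Benjamini-Hochberg adjustment ran over every gene tested with a threshold of 0.05. Errors after ± are SD for GETMM levels and SE otherwise. Each SE was derived from the test, as the absolute log2 fold change over the square root of its F statistic. It is therefore approximate, above all for genes near 0 counts in a group. CPM use TMM-scaled library sizes, except summed marker levels and shares, which use total counts. Fits were tested on simulated data. The closest pair of libraries within either wild-type group gave a chi-square of 2.58 per degree of freedom, so none of these was taken for a repeated deposit. Pairs of knockout libraries and pairs across groups were not examined. Intervals and floors (3 counts over the group) cover counting error only. Sharing of windows was counted over all 40-base windows of GENCODE M21 transcripts, which also gave the gene coordinates; promoters are RefSeq's on GRCm38.p6.

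The members and gene lists were chosen with earlier results of these data known. Genes named were the 5 markers, Mrc1, Cd14, Tlr2, Vegfa, Cxcl12 and Mapkapk2; the 15 largest rises and falls at an average log2 CPM of at least 2; the 12 largest gains and losses in GETMM; the genes with 3 or fewer M0 counts; up to 6 called members of each list and up to 2 not called; and the 10 smallest p in the test between culture numbers. Of the 277 called genes that these rules allow, 151 are printed, and the choice among them was made with their values and the stability of their calls known; losses of calls are therefore counted over all 277. Fcer1g, Irf7, Mki67, Clec10a, Stat6, Maf, Tlr4, Odc1, Birc5, Dut, Fos and the other cell markers with values were chosen after their values were seen. Alternatives were DESeq2 1.42.0, a CPM filter, no filter on counts, RLE size factors, wild-type libraries alone, a replicate block, limma 3.58.1 on log2(GETMM + 1), each set of cultures alone, and leaving out libraries.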

Additional observations from a re-analysis of the deposited data

Results flagged for a closer look

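Values standing far from the other 5 libraries of their group, by the gap to the nearest one over the range, were found in 25 of 342 groups examined (7.31%), and chance gives about 1 in 20. M2 replicate 2 held 14 of them. In that library Socs1 was at 5.74 CPM, Il4ra at 97.5, Stat6 at 243, H2-T23 at 246, Sdf2l1 at 82.8, Psap at 29096, Lgals3 at 6912, Vwf at 177, Mapkapk2 at 139, Fcer1g at 362, Cox5a at 122, Echs1 at 76.2 and Slc2a3 at 5.42, each the highest of the M2 libraries, and Tlr4 was the lowest at 100.3. This library is also 1 of the 3 numbered apart.

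Among M0 libraries, replicate 4 was the highest for Cldn11 (0.0971 CPM), Lsp1 (34.0), Il6st (371) and Olr1 (0.485), and replicate 1 for Pou2f2 (58.7) and Gpnmb (18286). Replicate 3 was the highest for Retnla (0.156 CPM) and Smox (20.6), replicate 6 for Arg1 (0.576) and replicate 2 for Slc40a1 (968). M2 replicate 4 was the lowest for Dut (10.1 CPM). For Arg1, Retnla and Cldn11 these M0 libraries held 5, 2 and 1 counts.

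The IL-4 response in cultures 4 to 6 minus that in cultures 1 to 3 passed the test for Chil3 (-2.08 on the log2 scale), Tmem26 (-2.46) and Mir6236 (-4.43). For Mir6236 the estimate was 1.43 in cultures 1 to 3 and -3.00 in cultures 4 to 6.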

How the results depend on the processing

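Of the 277 called genes that the naming rules allow, printed or not, 0 lost their call with RLE size factors, DESeq2 or the CPM filter, 6 with limma on GETMM, 30 with no count filter, 35 of 269 with wild-type libraries alone, 25 without the 3 libraries numbered apart and 43 without M0 replicates 1 and 4. Cultures 1 to 3 alone lost 90 of 276 and cultures 4 to 6 alone 51 of 277, where fewer libraries were used. These fits of 1 set of cultures also held the knockout libraries with the same replicate numbers, to estimate the spread. Leaving out 1 library lost 6 to 24 of them and gave 921 to 1189 genes higher and 821 to 1087 lower. Of all 2103 calls, 1685 to 1903 were shared with those fits, 1447 with the fit without a count filter, 1440 with that without M0 replicates 1 and 4 and 831 with cultures 1 to 3 alone. Without a count filter 896 rose and 610 fell, which is 59.5% higher against 51.6%; the cause was not tested. Cultures 1 to 3 alone gave 527 higher and 330 lower (61.5% higher), and cultures 4 to 6 alone 912 and 770. Named genes other than the noisier ones given together lost calls as well. Cxcl10, Cxcl2, Smox and Tmsb4x lost theirs with either set of cultures alone, and Ifi30 without the 3 libraries numbered apart. With cultures 4 to 6 alone Il13ra1, Nr4a1, Ifit2, Nfkbiz, Ppargc1b, Ocstamp, C3, F13a1, Vegfa and Olr1 also lost theirs. With cultures 1 to 3 alone Icosl, Ldha, Atp5b, Sdf2l1, Gpnmb, Selenop, Ccnd3 and Sat1 did. Some printed genes that did not pass gained a call instead: 2 in DESeq2, 4 with cultures 4 to 6 alone and 2 without M0 replicate 5.

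Replicate numbers were not taken to pair the samples, because not every same-numbered pair of M0 and M2 libraries had a correlation of deviations over 0.1: the values were 0.354, 0.125, 0.0105, 0.0285, 0.204 and 0.133, and only numbers 1 and 5 were each other's best match. A replicate block for the IL-4 response was fitted on the wild-type libraries only. With it 1040 genes rose and 1007 fell, against 813 and 779 in the same libraries without the block. Of 269 genes allowed by the rules, 10 lost their call with the block and 35 without it. Compared with the fit of all 24 libraries, H2-Aa and Ccl2 gained a call with the block, and 9 MHC class II genes rose in place of 5. In the test between culture numbers 12 genes passed in DESeq2, 6 with a replicate block, 0 without the 2 wild-type libraries numbered apart, and 0 to 3 with 1 library left out. In the test between genotypes 1 gene passed in DESeq2 and 2 with a replicate block.

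Directions of printed genes reversed only where the gene did not pass. For Il4ra the log2 fold change was -0.036 without the 3 libraries numbered apart, -0.0011 in cultures 4 to 6, -0.019 without M0 replicates 1 and 4, and -0.051 to 0.085 with 1 library left out. For Cxcl12 the range with 1 library left out was -0.18 to 0.036. For Mapkapk2 it was -0.034 to 0.064, with -0.0034 in cultures 4 to 6 and -0.069 without M0 replicates 1 and 4. In cultures 1 to 3 alone Mir6236 was at 1.45, Ltf at 0.37 and Lcn2 at 0.19. The causes were not tested.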
